A study of Mus musculus with 12 samples.

Results

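Angptl4 and the genes of the lipoprotein lipase axis were followed in mouse quadriceps muscle after treatment with a PPARδ agonist, an AMPK activator or both. The members were the probe sets that the array annotation assigns to exactly one of the symbols Angptl4, Lpl, Gpihbp1, Vldlr, Angptl2 or Lmf1. This rule found 13 probe sets of 5 genes, out of 45037 probe sets and 18193 genes named by a single symbol. They were 2 for Angptl4, 2 for Lpl, 1 for Gpihbp1, 6 for Vldlr and 2 for Lmf1. Angptl2 was not analysed here.

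Quadriceps came from C57Bl/6J mice treated for 6 days. The mice of one group had vehicle, those of another AICAR (250 mg/kg/day), those of the next GW1516 (5 mg/kg/day), and those of the last the 2 drugs together at the same doses. AICAR is an adenosine analogue that is converted in cells to an AMP mimic and activates the AMP-activated protein kinase, AMPK. GW1516 is a synthetic agonist of PPARδ, a nuclear receptor that binds DNA with RXR and switches on genes of fatty acid use. Each group had 3 arrays, 12 in all, and an array held the pooled RNA of 3 mice. Whether a mouse could enter more than one pool is not stated, so the spread behind each p-value is that between pools and may be technical.

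Lipoprotein lipase, the product of Lpl, splits the triglycerides of circulating lipoproteins at the capillary wall, and muscle and fat take up the released fatty acids. Muscle fibres and fat cells make the enzyme, LMF1 helps it fold in the endoplasmic reticulum, and GPIHBP1 on capillary endothelium carries it to the lumen. ANGPTL4 is a secreted protein that inactivates the enzyme and whose gene is a known target of the PPARs. VLDLR is a receptor that binds triglyceride-rich lipoproteins.

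Values are MAS5 signals, a linear measure of a probe set's brightness, on arrays that shared a trimmed mean of 200.001. Differences are on the log2 scale, where 1 is a doubling, and come from limma over 12771 genes, each read from its brightest probe set. A gene was called at a Benjamini-Hochberg adjusted p below 0.05 over all these genes. The muscle markers Acta1 and Ckm had signals of at least 24270 and 23880 on every array. Correlations between arrays ran from 0.947 to 0.968. GW1516 replicate 2 was set apart from the rest by a score of 0.812 on the first principal component (13.4% of the variance). The other arrays scored at most 0.120. The main values that rest on this array are given with and without it.

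Angptl4 was higher on arrays from mice given GW1516, whether or not AICAR was given too. Its vehicle signals were 177, 71.0 and 107 on replicates 1, 2 and 3. Its AICAR signals were 80.9, 198 and 224. Under GW1516 alone they were 326, 361 and 462. Under both drugs they were 427, 281 and 327. The 6 arrays with GW1516 lay between 281 and 462 and the 6 without it between 71.0 and 224, so the arrays with and without the agonist did not overlap. The group means ran in the order vehicle, 118 ± 53.7 (SD, n = 3), AICAR, 168 ± 76.3, both drugs, 345 ± 74.8, and GW1516, 383 ± 70.8. The neighbours vehicle and AICAR overlapped, as did the combination and GW1516, while AICAR and the combination did not.

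**Figure D1:**
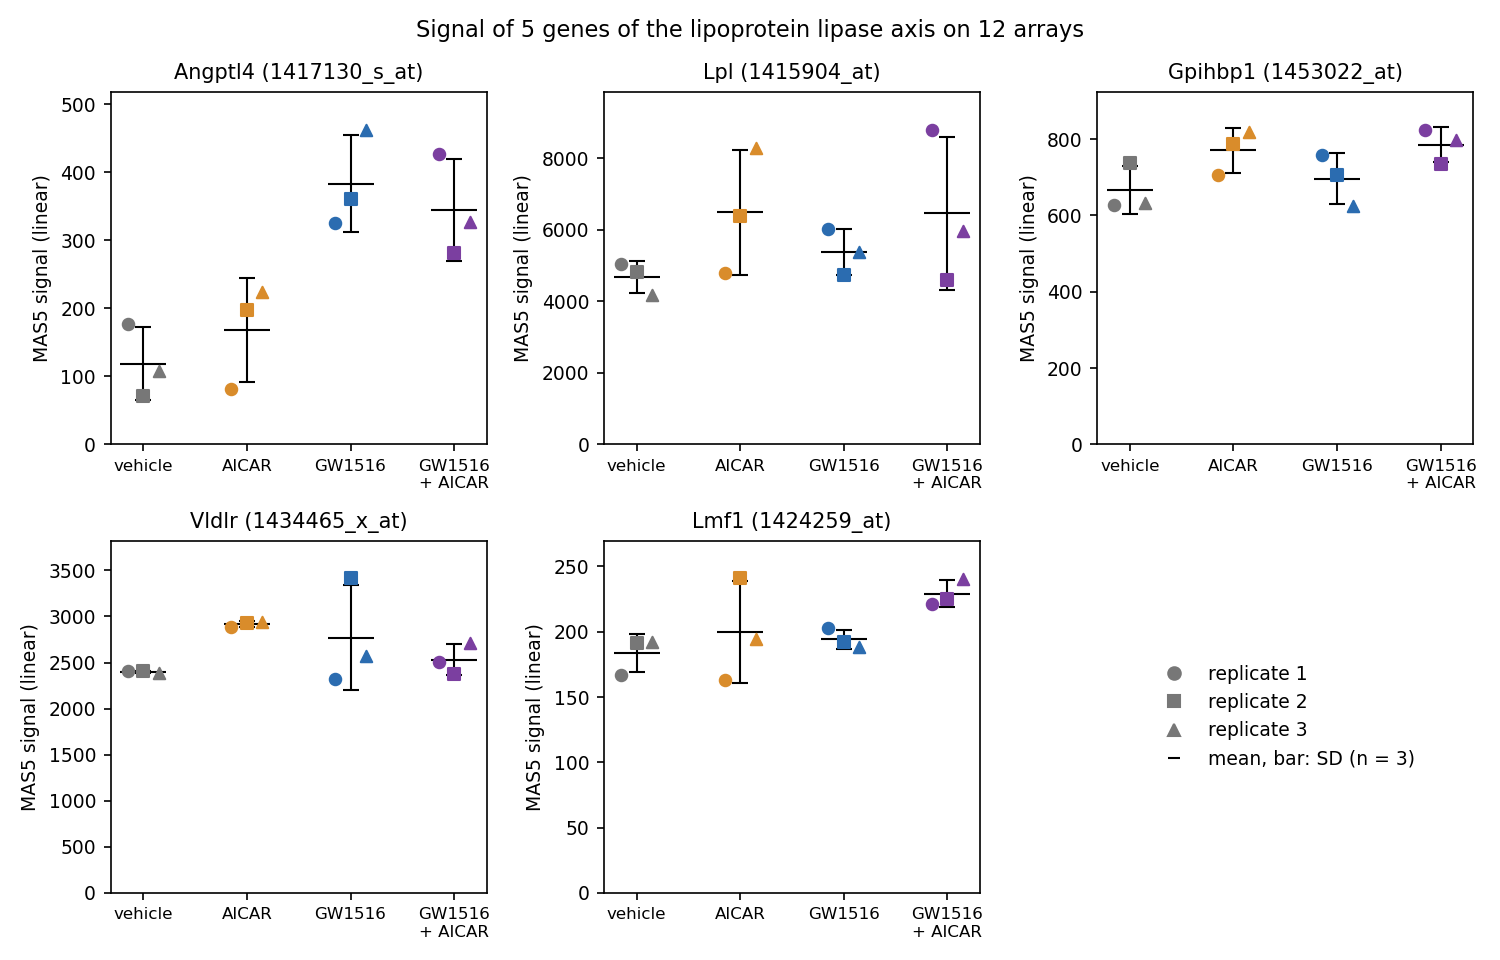
Signal of the brightest probe set of 5 genes on each array (y axis: linear MAS5 signal, from 0), by group on the x axis, with the mean and SD of 3 arrays. Angptl4 lay between 281 and 462 on the 6 arrays with GW1516 and between 71.0 and 224 on the others, and the groups of the other genes mostly overlap.

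Averaged over mice without and with AICAR, the GW1516 effect on Angptl4 was a rise of 1.46 ± 0.26 (SE, 6 arrays against 6) on the log2 scale. This is 2.76-fold with a 95% confidence interval of 1.89 to 4.03 (limma, adjusted p = 0.0351). It was the 1 member called of 5 in that comparison, where 0.149% of all genes were called in either direction. By size of the rise Angptl4 ranked 2 among 12771 genes, and by p it ranked 19 of the 19 genes called. Groups without overlap on the higher side were found for 0.454% of genes in that comparison. An unadjusted p below 0.05 was found for 1 of 5 members and for 9.51% of genes.

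The single comparisons of Angptl4 did not pass the threshold. GW1516 against vehicle stood at 1.78 ± 0.36 (adjusted p = 0.136, 3.43-fold, 95% interval 2.01 to 5.87), with the 3 arrays of each group apart. The combination against vehicle stood at 1.62 ± 0.36 (adjusted p = 0.0970, 3.08-fold), also without overlap, and these comparisons share the vehicle arrays. The combination against AICAR stood at 1.15 ± 0.36 (adjusted p = 0.630), again without overlap. Of all genes, 6.30%, 8.90% and 6.80% lay higher without overlap in these comparisons. In these 3 comparisons 0 of 5 members were called, beside 0.0940%, 0.258% and 0.0313% of all genes by limma. The unadjusted p was below 0.05 for 1 member against 9.64% of genes, for 3 against 10.9% and for 1 against 7.32%.

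AICAR made no difference to Angptl4 that passed the test. Against vehicle it stood at 0.47 ± 0.36 (adjusted p = 0.828), with a 95% interval of -0.30 to 1.25. Added to GW1516 it gave -0.16 ± 0.36 (adjusted p = 0.905), with an interval of -0.93 to 0.62. The average AICAR effect was 0.16 ± 0.26 (adjusted p = 0.861), and the direct comparison of AICAR with GW1516 was -1.31 ± 0.36 (adjusted p = 0.317). The interaction, which asks whether GW1516 acted differently where AICAR was present, was -0.63 ± 0.51 (adjusted p = 0.815), with an interval of -1.73 to 0.46. As a fold, the interval of AICAR against vehicle ran from 0.812 to 2.37. AICAR arrays lay below GW1516 arrays without overlap, as for 6.48% of genes.

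The call for Angptl4 was a narrow one. It was lost at values of 1.31 to 1.56 when AICAR replicate 2, GW1516 replicate 2 or 3, any combination array, or vehicle replicate 2 or 3 was left out, with adjusted p from 0.0524 to 0.117. It held when AICAR replicate 1 or 3, GW1516 replicate 1 or vehicle replicate 1 was left out, at 1.23 to 1.63 and adjusted p from 0.0173 to 0.0455. It was also lost in a fit without the trend of variance on signal (adjusted p = 0.221). Tested by limma over all 45037 probe sets, the brightest Angptl4 probe set stood at 1.46 ± 0.25 (adjusted p = 0.0526) and did not pass. The second Angptl4 probe set, 1453410_at, gave signals of 0.479 to 12.1, was left out by the filter on dim probe sets and had overlapping groups. The brightest, 1417130_s_at, carries a suffix that marks probes shared by several transcripts.

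**Figure D2:**
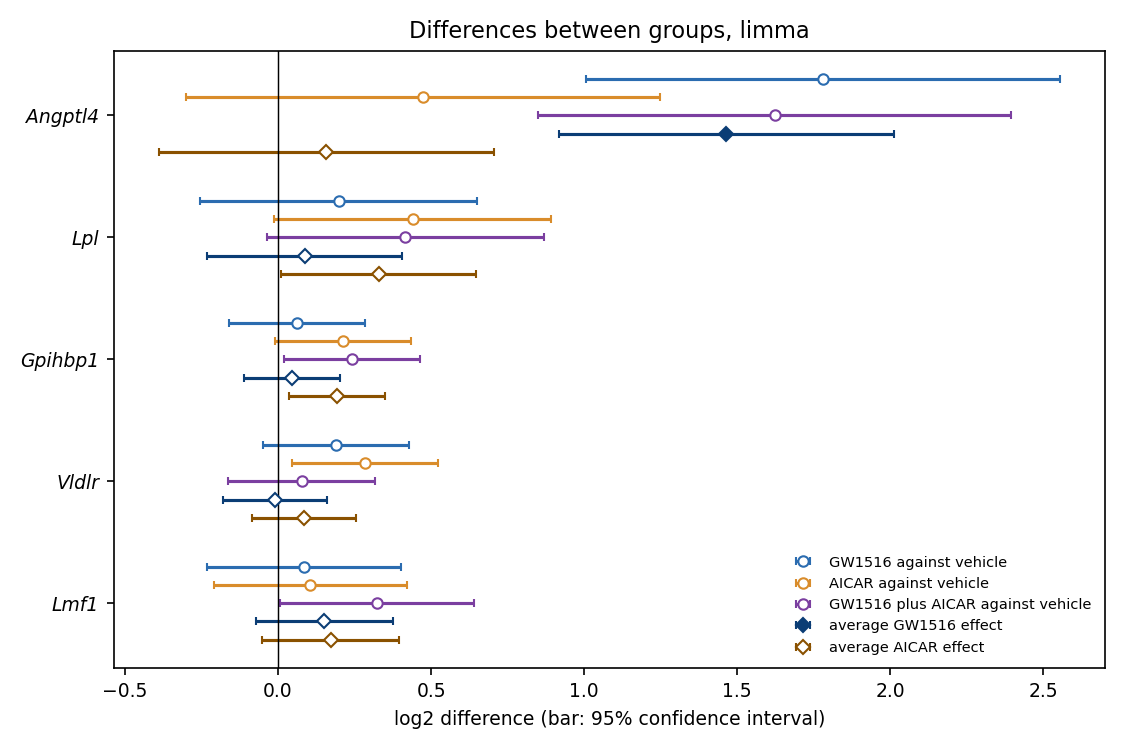
Log2 difference (x axis) of each gene (y axis) for 3 comparisons with vehicle and the 2 average effects, with bars for the 95% confidence interval. The filled symbol marks the 1 difference past the threshold, the average GW1516 effect on Angptl4 at 1.46, and open symbols did not pass.

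Fat cells make both Angptl4 and Lpl, and their markers varied between the pools. Of 16 adipocyte markers listed, 13 were measured, and none was at 0, the lowest being Cidea at 4.82. Adipoq, the adipokine adiponectin, ranged from 659.5 to 4385 and the leptin gene Lep from 32.4 to 203. The summed signal of the 13 markers was 18420 to 27750 in vehicle, 21460 to 41170 in AICAR, 17610 to 33300 in GW1516 and 19720 to 37160 in combination arrays. The median marker stood at 0.59, -0.45 and -0.17 against the vehicle mean on vehicle replicates 1, 2 and 3, on the log2 scale. It stood at -0.09, 0.88 and 1.70 on the AICAR arrays, 0.62, 0.18 and 1.23 on the GW1516 arrays and 1.60, 0.57 and -0.13 on the combination arrays. In bulk muscle, more fat cells and more RNA per fat cell cannot be told apart.

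Angptl4 varied with these markers within groups. Its deviations from the group means had a Pearson r of 0.81 with those of the marker median over 12 arrays, which share their RNA, and 0.61 without removing the group means. The marker median ran from -0.13 to 1.60 on the arrays with GW1516 and from -0.45 to 1.70 on those without it. With the marker median as a term in the fit, the average GW1516 effect on Angptl4 was 1.30 ± 0.17 (adjusted p = 0.00591). GW1516 against vehicle was then 1.36 ± 0.25 (adjusted p = 0.0948), and AICAR against vehicle was -0.04 ± 0.26 (adjusted p = 0.979). This fit was chosen after the values had been seen. The term is itself measured after treatment: for GW1516 against vehicle 12 of the 13 markers stood above 0 (median 0.60, 0 called). None of the 13 had an unadjusted p below 0.05. Without GW1516 replicate 2, 13 of 13 stood above 0 (median 0.935, 0 called), and 2 had an unadjusted p below 0.05. Fabp4 is both an adipocyte marker here and in the list of PPARδ targets below. The part of fat content in the Angptl4 values was not tested.

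**Figure D3:**
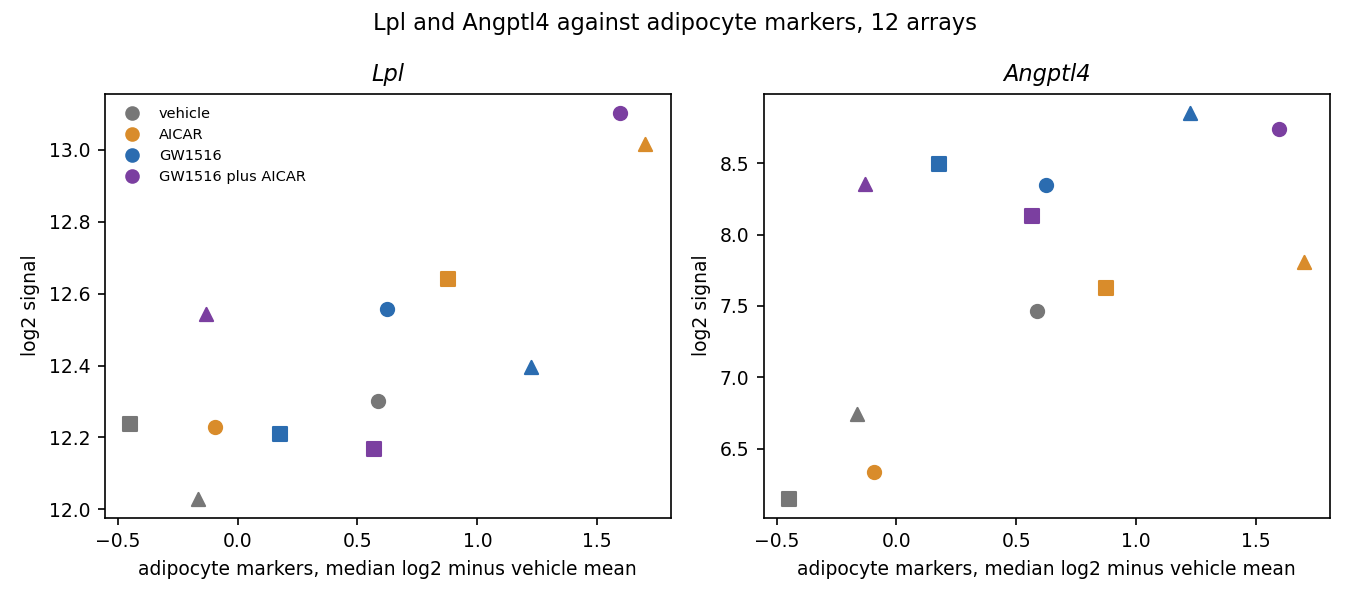
Log2 signal of Lpl and Angptl4 (y axes) against the median log2 difference of 13 adipocyte markers from the vehicle mean (x axes) on 12 arrays, with colours for groups and circles, squares and triangles for replicates 1, 2 and 3. Lpl is highest on combination replicate 1 and AICAR replicate 3, which have the highest marker medians. For Angptl4 the 6 arrays with GW1516 lie above the others, at marker medians of -0.13 to 1.60 against -0.45 to 1.70.

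Lpl, the lipase itself, had overlapping groups throughout. Its brightest probe set gave 5042, 4830 and 4183 in vehicle. AICAR arrays gave 4800, 6387 and 8291. GW1516 arrays gave 6028, 4735 and 5385, and combination arrays 8801, 4602 and 5970. The highest values were those of combination replicate 1 and AICAR replicate 3, while AICAR replicate 1 and combination replicate 2 lay within the vehicle range, and the other array of each group lay above it.

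No Lpl comparison passed the test. GW1516 against vehicle stood at 0.20 ± 0.21 (adjusted p = 0.797), AICAR at 0.44 ± 0.21 (adjusted p = 0.730) and the combination at 0.42 ± 0.21 (adjusted p = 0.498). The average GW1516 effect was 0.09 ± 0.15, with a 95% interval of -0.23 to 0.41, which is 0.851 to 1.33-fold. The average AICAR effect was 0.33 ± 0.15 (adjusted p = 0.466). In the comparison of AICAR with vehicle 0 of 5 members were called, beside 0.00783% of genes, and for the average AICAR effect 0 of 5, beside 0.0313%. Without AICAR replicate 3 the AICAR difference was 0.25, and without combination replicate 1 the combination difference was 0.17. For AICAR against vehicle 1 of 5 members, Vldlr, had an unadjusted p below 0.05, beside 6.93% of genes, and for the average AICAR effect 2 of 5, Lpl and Gpihbp1, beside 10.4%. Of the 13 adipocyte markers, 13 stood above 0 for the average AICAR effect, with a median of 0.47 and 0 called. Lpl had an r of 0.78 with the adipocyte marker median over 12 arrays and 0.74 for deviations from group means. With the median of the endothelial markers described below, r was 0.66, and 0.65 for deviations. With the marker median in the fit, AICAR against vehicle was 0.16 ± 0.17 (adjusted p = 0.870). The parts of fat and endothelial content in the Lpl values were not tested. The other probe set of Lpl, 1431056_a_at, had an r of 0.86 with the first and stood at 0.25, 0.05 and 0.05 for AICAR, GW1516 and the combination against vehicle.

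Gpihbp1, the endothelial carrier of the lipase, differed little between groups, and no comparison passed the test. Its signals were 628, 739 and 633 in vehicle, 706, 788 and 818 in AICAR, 758, 707 and 625 in GW1516 and 825, 736 and 797 in combination arrays. Vehicle replicate 2 reached into the range of both groups that received AICAR. The average AICAR effect was 0.19 ± 0.073 (adjusted p = 0.381, 1.14-fold) and the average GW1516 effect 0.05 ± 0.073 (adjusted p = 0.859), with an interval of 0.926 to 1.15-fold. The combination against vehicle stood at 0.24 ± 0.10 (adjusted p = 0.422). The 16 endothelial markers measured had medians between -0.17 and 0.20 against the vehicle mean over all arrays. Their summed signal was 4720 to 5703 in vehicle, 5541 to 6019 in AICAR, 5263 to 5799 in GW1516 and 5357 to 6124 in combination arrays. Pecam1 and Cdh5, which define endothelium, were at least 281 and 295 on every array. In the combination against vehicle 1 of the 16 was called, beside 0.258% of all genes. It was Adgrf5, which rose by 0.57 ± 0.11 (adjusted p = 0.0477). For the average AICAR effect 0 were called, beside 0.0313% of all genes, and 10 of the 16 stood above 0, with a median of 0.03. Adgrf5 stood at 0.41 (adjusted p = 0.0624) and Ramp2 at 0.43 (adjusted p = 0.0867). Tek stood at -0.23 (adjusted p = 0.482) and Cdh5 at -0.17 (adjusted p = 0.524). These 4 genes were named after their values were seen. The part of endothelial content in the Gpihbp1 values was not tested.

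Lmf1, the folding factor, had its highest mean in the combination. Its brightest probe set gave 167, 192 and 192 in vehicle, 163, 241 and 195 in AICAR, 203, 192 and 188 in GW1516 and 222, 225 and 241 in combination arrays. The 3 combination arrays lay above the vehicle and the GW1516 arrays, while AICAR replicate 2 reached the highest of them. The combination against vehicle stood at 0.32 ± 0.15 (adjusted p = 0.451, 1.25-fold, interval 1.00 to 1.56) and against GW1516 at 0.24 ± 0.15 (adjusted p = 0.585). Of all genes, 8.90% lay without overlap above vehicle in the combination and 6.77% above GW1516. The combination against GW1516 had 0 of 5 members called, beside 0% of genes by limma, and 0 of 5 at an unadjusted p below 0.05, beside 10.4%. The dim probe set 1445833_at, at 2.95 to 36.9, was left out by the filter, and no difference is read from it.

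Vldlr, the lipoprotein receptor, was read by 6 probe sets, all past the filter, and they did not share a direction under AICAR. The brightest, 1434465_x_at, gave 2404, 2407 and 2381 in vehicle and 2885, 2928 and 2945 in AICAR arrays, a difference of 0.28 ± 0.11 (adjusted p = 0.652) with no overlap. The next, 1438258_at, gave 2364, 2327 and 2187 in vehicle and 1929, 1843 and 2023 in AICAR arrays, a difference of -0.25 ± 0.16 with no overlap on the other side. Over the 6 probe sets AICAR stood above vehicle in 4 and below in 2, from -0.36 to 0.28, and the groups did not overlap in 2 on each side. Among all genes 9.30% lay above and 9.03% below without overlap. Here and below, the 6 probe sets read 1 gene on the same arrays and are not independent. The shares of genes count 1 probe set per gene, so the counts and the shares are in unlike units. None of the 6 passed over all 45037 probe sets (lowest adjusted p = 0.685), where 0.00222% were called. Without GW1516 replicate 2 in the fit, which changes only the shared spread here, 1434465_x_at stood at 0.28 ± 0.067 (adjusted p = 0.239). In that fit 1438258_at stood at -0.25 ± 0.080 (adjusted p = 0.450), and again none of the 6 passed. The suffix of 1434465_x_at marks probes that can bind other transcripts.

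Under the combination most Vldlr probe sets stood below vehicle, and none passed the test with all arrays. The probe set 1438258_at gave 1556, 1867 and 1779, against vehicle a difference of -0.41 ± 0.16 (adjusted p = 0.447 over all probe sets). Of the 6 probe sets, 4 stood below vehicle, 3 of them without overlap, while the brightest stood at 0.08 ± 0.11 (adjusted p = 0.839). Over all probe sets 0.102% were called, and 9.69% of genes lay lower without overlap. Against AICAR 3 of the 6 lay lower without overlap, beside 7.68% of genes, and against GW1516 1 of 6, beside 6.08%. Fitted without GW1516 replicate 2, which enters here only through the shared spread, 1438258_at fell by 0.41 ± 0.080 in the combination (adjusted p = 0.0482). In that fit 0.369% of probe sets were called, and the other 5 probe sets of Vldlr were not.

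GW1516 replicate 2 was the highest of the 12 arrays in 6 of 6 Vldlr probe sets, where it was highest for 14.5% of all genes. The brightest probe set gave 2323, 3415 and 2574 on GW1516 replicates 1, 2 and 3, and 1417900_a_at gave 1042, 2146 and 1155. Replicate 2 stood at 1.40 to 2.29 times the mean of replicates 1 and 3 over the 6 probe sets. With it, GW1516 against vehicle was above 0 in 6 of 6 probe sets, from 0.01 to 0.39, with a lowest adjusted p = 0.678 over all probe sets, of which 0.0222% were called. Without it 2 of 6 stood above 0 and 4 below, from -0.36 to 0.06. The brightest then stood at 0.03 ± 0.075, and 1438258_at at -0.26 ± 0.090 (adjusted p = 0.698). On that array the 13 fibroblast and matrix markers measured had a median of -1.37 and the 12 macrophage markers one of -0.62 against vehicle. The summed fibroblast signal there was 17670, against 32700 to 45570 on the other arrays. Its ratio of 3' to 5' Gapdh signal, 0.863, lay within the 0.802 to 0.880 of the series. The deviations of Vldlr from its group means had a Pearson r of -0.82 with those of the fibroblast markers over 12 arrays and 0.50 over the 11 without this array, so the sign rested on it. With those of the muscle fibre markers r was -0.81 and, without it, -0.63. The part of these differences in the Vldlr values was not tested.

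**Figure D4:**
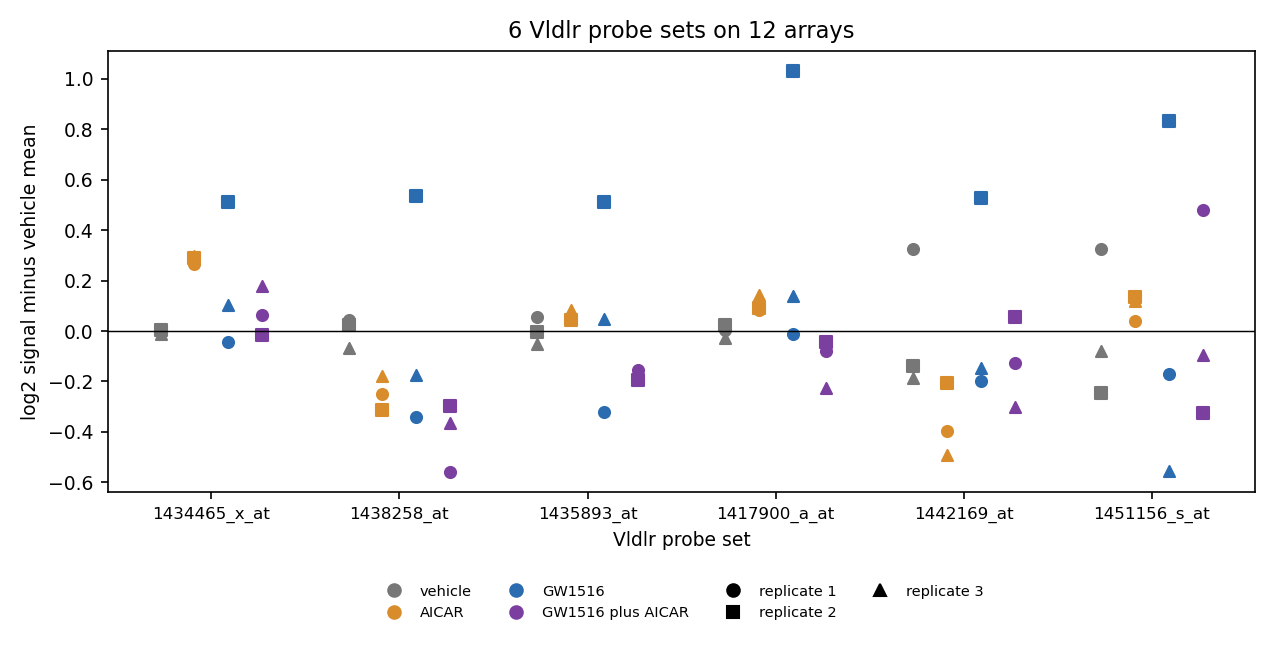
Log2 signal minus the vehicle mean (y axis) for 6 Vldlr probe sets (x axis), with colours for groups and circles, squares and triangles for replicates 1, 2 and 3. The blue square, GW1516 replicate 2, is the highest point in each probe set, and AICAR lies above vehicle in 1434465_x_at and below it in 1438258_at.

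The interaction on Vldlr, -0.40 ± 0.16, did not pass either (adjusted p = 0.723), and it was -0.24 without GW1516 replicate 2. Over the 6 probe sets it ran from -0.61 to 0.18, and from -0.29 to 0.41 without that array. For the interaction 0 of 5 members were called, beside 0% of genes, and 1 of 5 had an unadjusted p below 0.05, beside 6.64% of genes. AICAR against GW1516 likewise had 0 of 5 members called, beside 0% of genes, and 1 of 5 at an unadjusted p below 0.05, beside 9.15%.

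PPARδ and RXR bind repeats of AGGTCA, and the upstream windows of Lmf1 and Vldlr, the measured members with a RefSeq promoter entry at hand, are shown for that reason. They run 250 bases up to an annotated start (GRCm38.p6, both on the plus strand), at chr17:25578924-25579173 for Lmf1 and chr19:27216234-27216483 for Vldlr, and capitals mark matches to AGGNCA on either strand.
Lmf1: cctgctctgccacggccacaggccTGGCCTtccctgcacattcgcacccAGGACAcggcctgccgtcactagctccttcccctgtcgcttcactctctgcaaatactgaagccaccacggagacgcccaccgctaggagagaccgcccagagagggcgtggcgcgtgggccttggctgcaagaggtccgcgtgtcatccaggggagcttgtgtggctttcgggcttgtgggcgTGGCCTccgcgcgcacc
Vldlr: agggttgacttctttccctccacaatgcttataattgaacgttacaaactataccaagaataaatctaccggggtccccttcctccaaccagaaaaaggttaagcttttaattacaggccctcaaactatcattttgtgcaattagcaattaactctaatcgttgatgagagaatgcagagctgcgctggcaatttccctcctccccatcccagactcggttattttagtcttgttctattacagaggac
The exact AGGTCA was in neither window, and in 14% of 32851 windows of this length. The looser AGGNCA, which includes AGGTCA, was found 3 times in the Lmf1 window and 0 times in the Vldlr window shown, and in 51.3% of windows. Vldlr has a second annotated start, whose upstream window, not shown, held AGGNCA 1 time and AGGTCA 0 times. A match describes letters only.

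No measured gene in the list of lipoprotein lipase partners and regulators, which leaves out Angptl4, passed the test for the average GW1516 effect. Of 23 gene symbols listed as partners and regulators of the enzyme, 15 were measured past the filter. Of these, 0 were called by limma, beside 0.149% of genes, with 1 at an unadjusted p below 0.05, beside 9.51% of genes. Of the 15, 7 stood above 0 and 8 below, with a median of 0.00, where the median of all genes was -0.02. For the average AICAR effect 12 of the 15 stood above 0, beside 52.5% of all genes, with a median of 0.14 against 0.01. There 0 were called, beside 0.0313% of genes, and 2 had an unadjusted p below 0.05, beside 10.4%. The values of single genes that follow are for the average GW1516 effect. Lowest was Pcsk5, a proprotein convertase, at -1.33 ± 0.48 (adjusted p = 0.426). Sdc1, a heparan sulfate proteoglycan, stood at -0.37 (adjusted p = 0.650), the fatty acid receptor gene Cd36 at 0.22 (adjusted p = 0.669) and Furin, whose protease cleaves ANGPTL4, at -0.11 (adjusted p = 0.764). Angptl8, Apoc2, Apoc3, Apoc4 and Apoa5, which code for other activators and inhibitors of the enzyme, were below the filter.

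Within the angiopoietin-like and angiopoietin family, 6 of 8 listed genes were measured, and Angptl4 was the 1 called for the average GW1516 effect. Of all genes, 0.149% were called there. Of the 6, 2 had an unadjusted p below 0.05. Angpt1, a ligand of the endothelial receptor Tie2, stood at -0.51 (adjusted p = 0.461), its relative Angpt2 at -0.36 (adjusted p = 0.619) and Angptl7 at 0.20 (adjusted p = 0.778). Angptl7 stood at 0.93 ± 0.21 for the average AICAR effect (adjusted p = 0.136). Of 16 genes of the LDL receptor family and its regulators, 11 were measured and 0 called by limma for the average GW1516 effect, with 1 at an unadjusted p below 0.05. An unadjusted p below 0.05 was found for 9.51% of all genes. Of the 11, 9 lay below 0, with a median of -0.07, where 45.7% of all genes lay above 0. Among them were Lrpap1, a chaperone of these receptors, at -0.19 (adjusted p = 0.485), Lrp12 at -0.32 (adjusted p = 0.569), Lrp8 at -0.36 (adjusted p = 0.716) and Lrp1 at -0.13 (adjusted p = 0.731).

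Known PPARδ target genes of muscle stood above 0, as Angptl4 did, and some rose past the threshold. Of 18 listed, 15 were measured, and Angptl4 is not among them. For the average GW1516 effect all 15 stood above 0, beside 45.7% of all genes, with a median of 0.59. Past the threshold rose 7 of the 15, where 0.149% of all genes were called in either direction. The fatty acid oxidation gene Acadl rose by 0.83 ± 0.080 (adjusted p = 0.000243). Ucp3, a mitochondrial uncoupling protein, rose by 1.20 ± 0.11 (adjusted p = 0.000243), and Slc25a20, the carnitine carrier, by 0.70 ± 0.080 (adjusted p = 0.00169). Mlycd, which removes malonyl-CoA, rose by 1.04 ± 0.13 (adjusted p = 0.00347). For the average GW1516 effect the 13 fibroblast markers stood below 0 (median -0.38, 0 called) and 11 of 13 adipocyte markers above 0 (median 0.25, 0 called). Without GW1516 replicate 2 the fibroblast median was -0.19, with 13 of 13 below 0, and the adipocyte median 0.39, with 13 of 13 above. Their part in the target genes' values was not tested. Without that array 15 of 15 target genes stood above 0, with a median of 0.59, and 7 were called. Over all genes, 14 to 36 were called with any 1 array left out. The list was drawn up with earlier results of these data known, so its direction is not independent evidence. For the average AICAR effect 10 of the 15 stood above 0, beside 52.5% of all genes, with a median of 0.06. In that comparison 0 were called, beside 0.0313% of all genes.

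**Figure D5:**
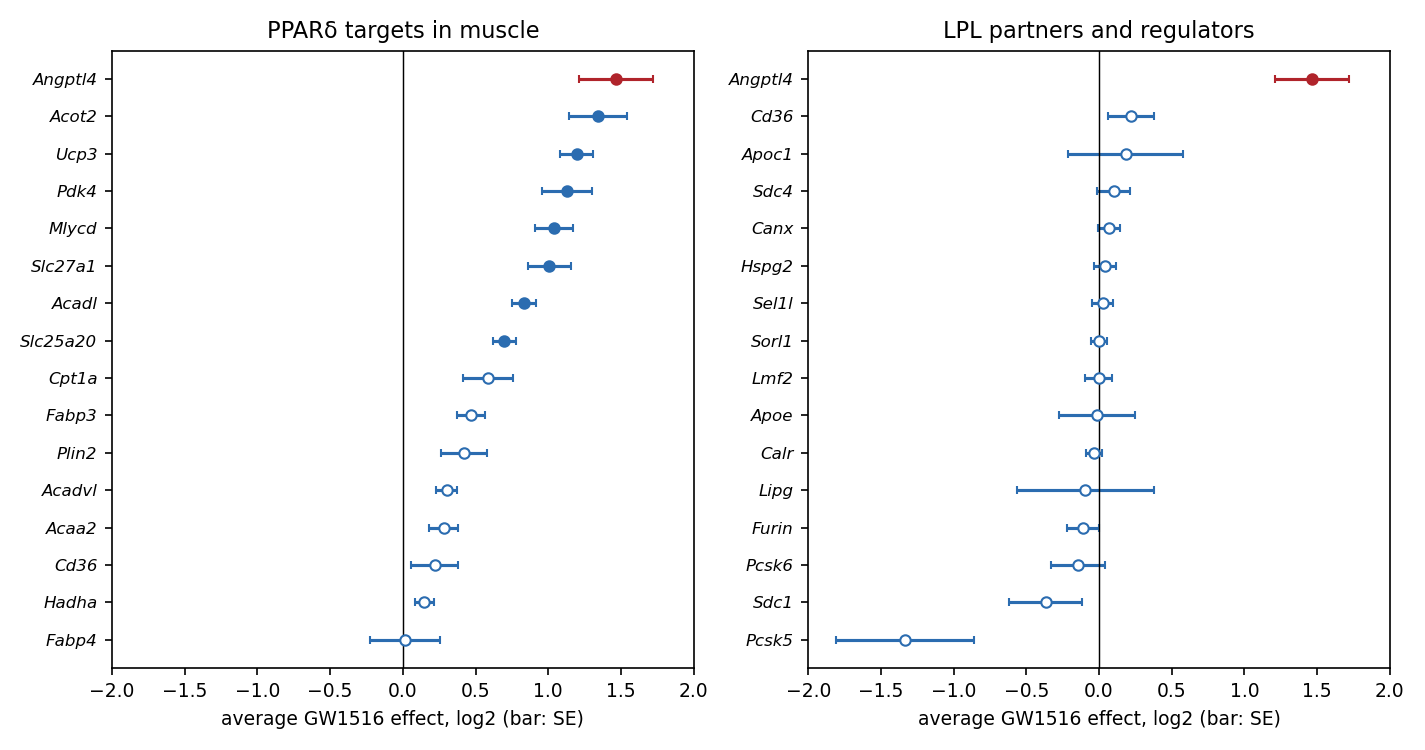
Average GW1516 effect on the log2 scale with its SE (x axes) for 15 PPARδ target genes and 15 partners or regulators of lipoprotein lipase (y axes), with Angptl4, which is in neither list, added in red. Filled symbols passed the threshold: Angptl4 and 7 target genes, and none of the 15 listed partners or regulators of lipoprotein lipase.

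The nuclear receptors themselves did not pass. Of Ppara, Ppard, Pparg, Rxra, Rxrb and Rxrg, 0 of 6 were called for the average GW1516 effect, beside 0.149% of all genes. An unadjusted p below 0.05 was found for 1 of the 6, Rxra, beside 9.51% of all genes. Ppard, the receptor of GW1516, stood at 0.21 ± 0.11 (adjusted p = 0.554) and its partner Rxra at 0.14 ± 0.064 (adjusted p = 0.504). Ppara stood at 0.19 (adjusted p = 0.828) and Pparg, the fat cell receptor, at 0.25 (adjusted p = 0.853), and Pparg at 0.80 for the average AICAR effect (adjusted p = 0.485).

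The genes with a pattern most like that of Angptl4 over the 12 arrays were Slc27a1, a fatty acid transporter gene, with a Pearson r of 0.90, then Thrap3 and Erp29 at 0.87, Gmppa at 0.87 and Acadl at 0.86. For deviations from group means the same genes had r of 0.60, 0.70, 0.80, 0.38 and 0.32. Against vehicle, Slc27a1 stood at 1.14, 0.22 and 1.10 for GW1516, AICAR and the combination, while Thrap3 stood at 0.17, 0.05 and 0.18. Lpl was most like Gnai1, at 0.95, and Dgat2, at 0.94, an enzyme of triglyceride synthesis that is in the adipocyte marker list, then Chpt1 at 0.90. Gpihbp1 was most like Arpin, Ier5 and Ung, at 0.93, 0.90 and 0.90. Vldlr was most like Ubqln1, Itgb5 and Setdb1, at 0.91, 0.91 and 0.89, and Lmf1 like Mastl, Glb1l and Vti1a, at 0.90, 0.88 and 0.87. For deviations from group means, in the same order, r was 0.97, 0.92 and 0.86 for Lpl and 0.91, 0.80 and 0.89 for Gpihbp1. It was 0.95, 0.94 and 0.90 for Vldlr and 0.91, 0.84 and 0.80 for Lmf1. The r of Vldlr include GW1516 replicate 2, its highest array, and are not given without it. These are the highest over all genes tested, and the arrays of a group share their treatment.

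Among the members, the pair of highest r was Lpl and Gpihbp1, at 0.73 over the 12 arrays and 0.59 for deviations from group means. Gpihbp1 and Lmf1 had an r of 0.65. Angptl4 and Lpl had an r of 0.46, and 0.62 for deviations from group means. Vldlr had r between 0.00 and 0.24 with the others.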

How the data were processed

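Expression arrays with 45101 probe sets gave 12 columns of linear values. The authors deposited these intensities as MAS5 signals made from each probe set's probes, a name taken from the submitters' processing notes. Its version, detection calls and genome build were not in the notes used here. With 3 arrays a group, precision is limited by their number. The 64 controls were left out, signals below 1 were set to 1, and log2 was taken. Probe sets among the dimmest 40% (mean signal under 28.2) were dropped, and the brightest probe set with 1 symbol stood for a gene. All 12 arrays entered 1 fit (limma 3.58.1, R 4.3.3, variance trend, 8 residual degrees of freedom) with 9 two-sided comparisons. Single probe sets were tested over all 45037. Named genes were the members, up to 4 per list (those called, then smallest p for the average GW1516 effect), and the 5 (Angptl4) or 3 most correlated genes. Members and lists were chosen with earlier results of these data known. The fit was tested on simulated data. Figures used matplotlib 3.10.9.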

Additional observations from a re-analysis of the deposited data

How the results depend on the processing

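The alternatives were quantile normalization, a pseudocount of 32, no filter, all probe sets, no variance trend, array weights, only the groups compared, the replicate block, each array left out, and, chosen after seeing the data, the adipocyte term and the gene lists and marker correlations without GW1516 replicate 2. The count of members called for the average GW1516 effect, 1, became 0 without the trend and 0 with the replicate block (Angptl4 at adjusted p = 0.0695), and was 0 to 1 with 1 array left out. In the limma test of single probe sets over all 45037, 1417130_s_at of Angptl4 stood at adjusted p = 0.0526 for that effect. For AICAR against vehicle it became 1 when only these groups were fitted (Vldlr, adjusted p = 0.0492). For GW1516 and for the combination against vehicle it was 0 to 1 with 1 array left out, Angptl4 being called without AICAR replicate 1 (adjusted p = 0.0325 and 0.0370). Of 930 values of single members, 10 lost a call, 3 gained one, and 7 uncalled values changed sign with a move of over 1 SE. Counts over all genes varied more: under the other settings 12 for GW1516 against vehicle became 0 to 12 (0 to 41 with 1 array left out), 1 for AICAR 0 to 28 (0 to 8), 33 for the combination 2 to 92 (10 to 95), 4 for the combination against AICAR 1 to 6 (1 to 10), 0 for the combination against GW1516 0 to 1 (0 to 10), 0 for AICAR against GW1516 0 to 2 (0 to 2), 19 for the average GW1516 effect 7 to 26 (14 to 36) and 4 for the average AICAR effect 0 to 29 (3 to 18). The cause was not tested. Same-numbered arrays did not deviate together (r from -0.11 to 0.07 over 18 pairs, and 2 of 12 arrays closest to their own number), so no pairing by number was seen. Whether the samples were paired in handling cannot be read from these values or from the labels. The second probe sets of Angptl4 and Lmf1 were too dim to bear on these results.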
